A study of Mus musculus with 6 samples.

Results

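The genes described here encode the MHC class I pathway and the immunoproteasome, the machinery by which a cell shows fragments of its own proteins to cytotoxic T cells. They are 10 genes of the 23462 with a symbol on the array: H2-K1, H2-D1, B2m, Tap1, Tap2, Tapbp, Psmb8, Psmb9, Psmb10 and Nlrc5. They were found by matching the RefSeq accession of each non-control probe to these symbols, and every matching probe was kept, which gave 15 probes. H2-K1, Tap1, Tap2, Tapbp and Nlrc5 had 2 probes each and the other genes 1 each.

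Colonic epithelium of male mice was profiled, 3 wild-type and 3 carrying a knockout of miR-31, with 1 one-colour Agilent array per mouse, to describe how loss of this microRNA alters gene expression in the colon. The tissue was separated by flow before RNA preparation. The gate, the strain, the age, the knockout allele and whether it acts in all cells are not given in the sources used here. No probe matched Mir31, and these arrays give no check of the knockout itself. The mature strands of miR-31 are shown because their absence defines the knockout group, with the seed, bases 2 to 8, in capitals, from RefSeq (GRCm38.p6).
mmu-miR-31-5p: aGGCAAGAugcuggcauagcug
mmu-miR-31-3p: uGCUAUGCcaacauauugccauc

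In the class I pathway, cytosolic proteins are cut by the proteasome, and the peptides are pumped into the endoplasmic reticulum by the Tap1-Tap2 transporter. Tapasin, the product of Tapbp, bridges the transporter and the empty class I molecule, which is a polymorphic heavy chain (H2-K1 or H2-D1) paired with the invariant light chain B2m. Interferons induce most of these genes, exchange the catalytic subunits of the proteasome for Psmb8, Psmb9 and Psmb10, and induce Nlrc5, a transactivator of class I promoters. Intestinal epithelium presents peptides through this pathway to the T lymphocytes that lie among its cells.

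On single arrays the share of probes well above background ran from 66.6% to 75.6%, and 0 spots were saturated. The extraction software marked between 4.95% and 17.3% of spots per array as non-uniform or outlying, and among the members it marked 26 of 90 spot values. With marked spots left out, 9 of the 15 probes and 6 of the 10 genes could be tested, so the fit with marked spots kept, which covers all 15, is given beside it. Over 300 probes with several spots, a marked spot differed from the median of the unmarked spots of its probe by a median of 0.125 log2 units, against 0.062 between unmarked spots. All 6 arrays were on 1 slide, with wild-type arrays in row 2 and knockout arrays in row 1, so slide row and genotype cannot be told apart. All 13 epithelial markers, among them Epcam and Vil1, were well above background on every array. Of 24 immune cell markers, 20 were above background on every array, and of 11 markers of fibroblasts, smooth muscle and endothelium 7 were, with Pdgfra, Cdh5 and Kdr on no array.

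No member differed between knockout and wild-type past the threshold, and most member genes had a log2 change slightly above 0. With marked spots kept, 8 of the 10 genes had a log2 change above 0, with a median of 0.21 over the genes against -0.05 over all probes tested. Positive changes made up 40.8% of all probes. Psmb10 and Nlrc5 were the genes below 0. With marked spots left out, 5 of 6 tested genes were above 0 and their median was 0.17, against -0.06 over all probes. Without wild-type replicate 3 the median was 0.39 with marked spots left out and 0.40 with them kept. Without knockout replicate 3 it was 0.03 and 0.11.

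By limma with Benjamini-Hochberg adjustment over all probes, 0 of 9 member probes were called at an adjusted p under 0.05 with marked spots left out, where 69 of 33231 probes, 0.208%, were called. With marked spots kept it was 0 of 15, where 73 of 41015 probes, 0.178%, were called. At an unadjusted p under 0.05, 0 member probes were higher in knockout in either fit, against 3.27% and 3.31% of all probes. In 0 of 15 probes did all knockout arrays lie above or below all wild-type arrays, which held for 4.88% of all probes upward and 10.3% downward. The pooled within-group SD of the member probes had a median of 0.35 log2 units, against 0.21 over all probes tested. The 95% intervals allow sizeable changes for some members. Over the probe with the highest mean of each gene, with marked spots kept, they reached from -1.98 to 1.43, both bounds being those of Nlrc5. Those of the other genes reached from -0.43, for H2-D1 and Psmb10, to 1.37, for Tap1.

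**Figure D1:**
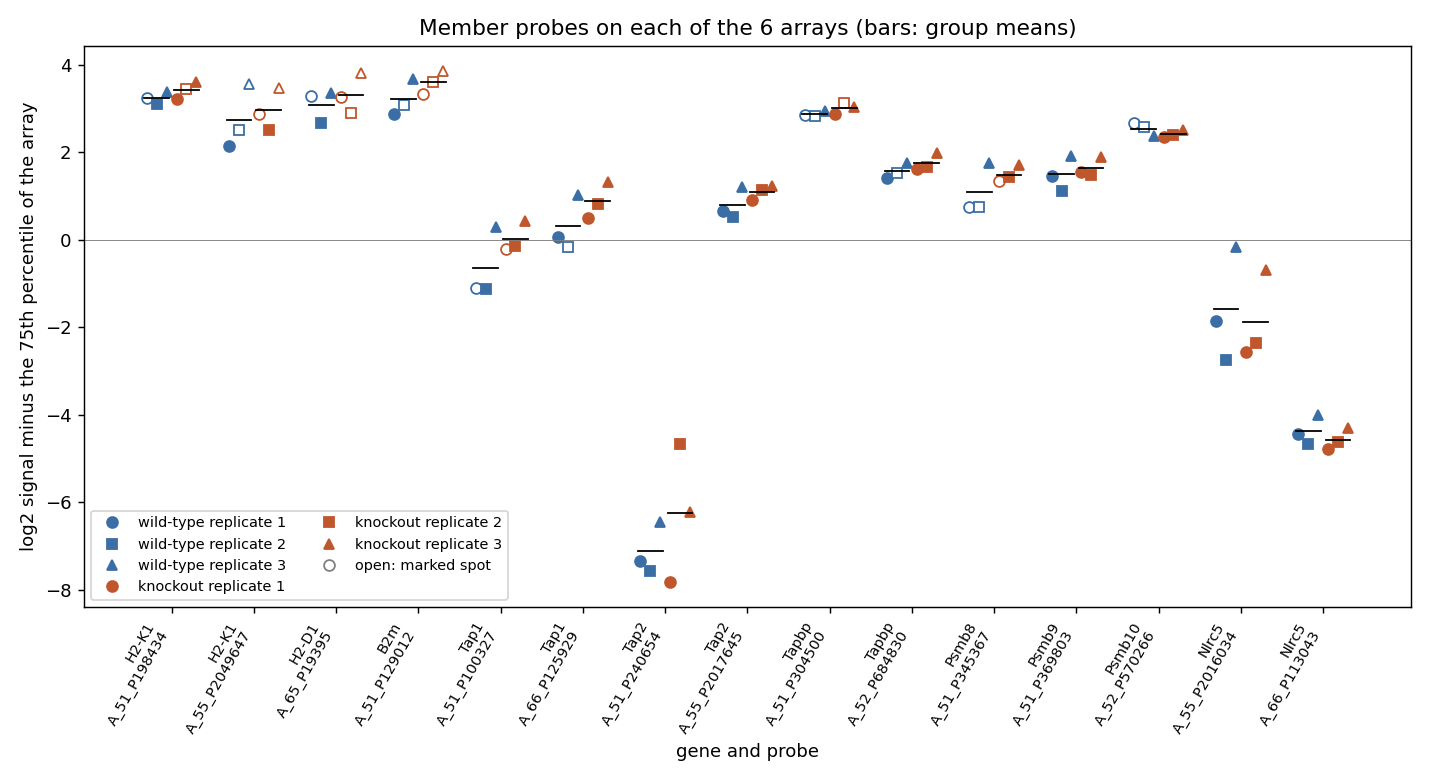
Level of each of the 15 member probes on each of the 6 arrays, as log2 signal minus the 75th percentile of the array. Blue symbols are wild-type and orange symbols knockout, shapes give the replicate, open symbols are spots marked by the extraction software, and black bars are group means. For most probes the triangles, replicate 3 of either genotype, lie above the other arrays of their group, and the groups overlap at every probe.

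The following levels are log2 signal relative to the 75th percentile of each array, with marked spots kept, in the order of replicates 1 to 3. H2-K1 and H2-D1 encode the classical heavy chains that hold the peptide. The first H2-K1 probe, A_51_P198434, read 3.24, 3.10 and 3.38 in wild-type and 3.23, 3.46 and 3.60 in knockout mice. Knockout replicates 2 and 3 were the highest and replicate 1 lay among the wild-type values. The log2 change was 0.19 ± 0.15 (SE; limma adjusted p = 0.714), and 0.18 ± 0.21 without marked spots (adjusted p = 0.826). The second H2-K1 probe, A_55_P2049647, was designed on another transcript record of the gene and read 2.14, 2.52 and 3.56 in wild-type and 2.87, 2.51 and 3.48 in knockout mice. Replicate 3 of both genotypes stood apart above the other 4 arrays, and the change was 0.22 ± 0.40 (adjusted p = 0.894). H2-D1 read 3.28, 2.66 and 3.35 in wild-type and 3.27, 2.89 and 3.81 in knockout mice. Replicate 2 was the lowest of each group, and the change of 0.23 ± 0.28 (adjusted p = 0.831) came with a 95% interval from -0.43 to 0.89.

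Heavy chain genes are close copies of each other, and their probes may read more than 1 of them, so the values of H2-K1 and H2-D1 are uncertain as values of single genes. For H2-D1 and the second H2-K1 probe 4 of 6 spots were marked. Without knockout replicate 3 the changes were -0.01 and -0.05 for the H2-K1 probes and -0.02 for H2-D1.

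B2m, the light chain shared by all classical class I molecules, read 2.87, 3.09 and 3.68 in wild-type and 3.33, 3.62 and 3.85 in knockout mice. Wild-type replicates 1 and 2 lay below all 3 knockout arrays, and wild-type replicate 3 lay above knockout replicates 1 and 2. The log2 change was 0.39 ± 0.24 (limma adjusted p = 0.639; 95% interval -0.18 to 0.95) with marked spots kept. With 4 spots marked, among them all 3 knockout spots, B2m could not be tested without them. The change was 0.62 when wild-type replicate 3 was dropped and 0.22 when wild-type replicate 1 was.

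The promoters of H2-K1, H2-D1 and B2m are shown because these genes are joined by a known regulatory module. Its parts are a kB-like element, an interferon element read by IRF factors, a CRE half-site and an inverted CCAAT box, the last 2 belonging to the module through which Nlrc5 acts. The promoter of Tap1 is shown because it is shared with Psmb9 on the opposite strand: their windows overlap by 275 bases. Windows are from RefSeq and GRCm38.p6, written 5′ to 3′ on the strand of the gene, and capitals mark matches on either strand to AANNGAAA (IRF core), GGNNTTNCC (kB-like), TGACG (CRE half-site) and ATTGG (inverted CCAAT box). H2-K1 lies at chr17:34000298-34000597 on the minus strand, H2-D1 at chr17:35262844-35263143 on the plus strand, B2m at chr2:122147437-122147736 on the plus strand and Tap1 at chr17:34187306-34187605 on the plus strand.
H2-K1: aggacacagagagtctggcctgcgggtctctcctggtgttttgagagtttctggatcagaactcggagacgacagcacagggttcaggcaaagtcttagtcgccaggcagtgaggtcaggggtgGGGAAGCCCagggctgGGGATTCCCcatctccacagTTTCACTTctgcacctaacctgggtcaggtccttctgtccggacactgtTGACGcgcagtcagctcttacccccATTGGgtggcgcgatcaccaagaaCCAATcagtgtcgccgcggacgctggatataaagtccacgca
H2-D1: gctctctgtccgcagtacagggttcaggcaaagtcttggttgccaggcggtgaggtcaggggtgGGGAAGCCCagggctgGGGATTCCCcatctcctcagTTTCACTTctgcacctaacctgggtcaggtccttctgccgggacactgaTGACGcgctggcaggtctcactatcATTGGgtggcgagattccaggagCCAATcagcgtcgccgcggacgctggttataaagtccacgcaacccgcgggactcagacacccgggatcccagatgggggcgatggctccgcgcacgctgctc
B2m: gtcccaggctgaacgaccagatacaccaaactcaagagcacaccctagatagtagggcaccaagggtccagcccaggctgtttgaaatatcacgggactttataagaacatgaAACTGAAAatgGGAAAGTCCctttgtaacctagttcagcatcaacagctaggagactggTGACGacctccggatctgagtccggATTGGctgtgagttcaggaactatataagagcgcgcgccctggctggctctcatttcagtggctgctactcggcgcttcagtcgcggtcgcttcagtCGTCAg
Tap1: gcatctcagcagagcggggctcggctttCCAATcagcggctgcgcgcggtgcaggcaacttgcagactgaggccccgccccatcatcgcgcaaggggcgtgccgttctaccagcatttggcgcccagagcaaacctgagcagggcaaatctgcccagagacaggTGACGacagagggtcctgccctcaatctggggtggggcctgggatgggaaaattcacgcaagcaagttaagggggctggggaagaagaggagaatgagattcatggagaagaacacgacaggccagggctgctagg

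RefSeq windows were found for 8 of the 10 genes, and Tap2 and Nlrc5 had none. The IRF core was found in 3 of the 8 genes, H2-K1, H2-D1 and B2m, against 23.9% of all 32851 windows, and the kB-like element in the same 3 genes, against 16% of windows. The CRE half-site was found in those 3 and in Tap1 and Psmb9, against 20.8% of windows. The inverted CCAAT box was found in 6 of the 8, against 37.4%. For both of these motifs the Tap1 and Psmb9 matches are the same site in their shared sequence, counted once for each gene. The interferon-gamma element TTCNNNGAA was found only in Psmb8 among the 8, against 8.3% of windows. No matches to different motifs overlapped in the member windows. In H2-K1, H2-D1 and B2m, TGACG was followed by ATTGG with 25 bases from start to start. That pair at that distance, a pattern noticed in these windows, was in 31 of the 32851 windows, 0.0944%, on either strand. The longest run shared by the H2-K1 and H2-D1 windows was 47 bases.

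Tap1, the transporter subunit paired with Tap2, had the largest upward change among members with signal above background on every array. Probe A_51_P100327 read -1.11, -1.13 and 0.29 in wild-type and -0.21, -0.14 and 0.43 in knockout mice. Wild-type replicates 1 and 2 lay well below all other arrays, wild-type replicate 3 lay above knockout replicates 1 and 2, and the change was 0.68 ± 0.40 (limma adjusted p = 0.62). Probe A_66_P125929 read 0.07, -0.16 and 1.02 in wild-type and 0.50, 0.82 and 1.32 in knockout mice. Its 6 arrays fell in the same order as those of the other probe, and the change was 0.57 ± 0.34 (adjusted p = 0.626). With marked spots left out the changes were 0.57 ± 0.51 and 0.33 ± 0.36 (adjusted p = 0.757 and 0.795). Without wild-type replicate 3 they were 1.28 and 0.81. Without wild-type replicate 2 the first was -0.15, and without wild-type replicate 1 the second was -0.14. In those 2 settings, with marked spots left out, wild-type replicate 3 was the single wild-type array remaining.

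Tap2 probe A_55_P2017645, on which no spot was marked, read 0.67, 0.53 and 1.20 in wild-type and 0.90, 1.14 and 1.24 in knockout mice. The array order was again that of Tap1, and the change was 0.29 ± 0.20 (limma adjusted p = 0.666, n = 3 and 3) in the fit without marked spots. It was 0.49 without wild-type replicate 3. The other Tap2 probe, A_51_P240654, was well above background on only 3 of 6 arrays. It read between -7.56 and -6.44 in wild-type and between -7.81 and -4.67 in knockout mice, and its change of 0.87 ± 0.73 (adjusted p = 0.735 with marked spots kept) rests on signal near background.

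Tapbp, which encodes tapasin, varied little between mice. Probe A_51_P304500 read 2.85, 2.83 and 2.95 in wild-type and 2.87, 3.12 and 3.03 in knockout mice, a change of 0.13 ± 0.13 (limma adjusted p = 0.769). Probe A_52_P684830 read 1.42, 1.52 and 1.76 in wild-type and 1.62, 1.66 and 1.98 in knockout mice, a change of 0.19 ± 0.16 (adjusted p = 0.734). Both probes had wild-type replicates 1 and 2 lowest. The 95% intervals, -0.16 to 0.43 and -0.18 to 0.56, were narrow beside those of Tap1, -0.26 to 1.62 and -0.24 to 1.37.

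Of the other genes of peptide loading and trimming, chaperones and peptidases that shape and load the peptide, 7 of 16 were above 0 and 9 below, with 0 called and a median of -0.01 with marked spots kept. Pdia3, the oxidoreductase of the loading complex, had a change of -0.39 ± 0.13 (unadjusted p = 0.0232, limma adjusted p = 0.415). It was named after its values were seen and was not tested with marked spots left out. Tapbpl, a tapasin relative that edits peptides, had a change of 0.14 ± 0.15 and the peptidase Tpp2 one of -0.15 ± 0.16 with marked spots left out (adjusted p = 0.802 and 0.793). Nrd1, another peptidase, had -0.28 ± 0.20 and Uggt1, which checks glycoprotein folding, 0.08 ± 0.13 (adjusted p = 0.681 and 0.871).

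Of 20 other class I and class I-like genes measured with marked spots kept, 12 were above 0 and 8 below, with a median of 0.02 against -0.05 over all probes, and 0 were called by limma or had an unadjusted p under 0.05. H2-T10, which has the smallest unadjusted p in that fit and was named after its values were seen, read 0.08, -0.79 and 0.24 in wild-type and 0.08, 0.55 and 0.59 in knockout mice. Its change was 0.56 ± 0.29 (unadjusted p = 0.0913, limma adjusted p = 0.571), with 4 of its 6 spots marked. In the fit with marked spots left out, where H2-T10 was not tested, the smallest unadjusted p-values belonged to 4 other genes. There H2-M5 had a change of -0.20 ± 0.11, Cd1d1, which presents lipids, -0.31 ± 0.23, Mr1, which presents vitamin metabolites, -0.20 ± 0.18, and Azgp1 0.29 ± 0.31. Their limma adjusted p-values ranged from 0.597 for H2-M5 to 0.789 for Azgp1.

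**Figure D2:**
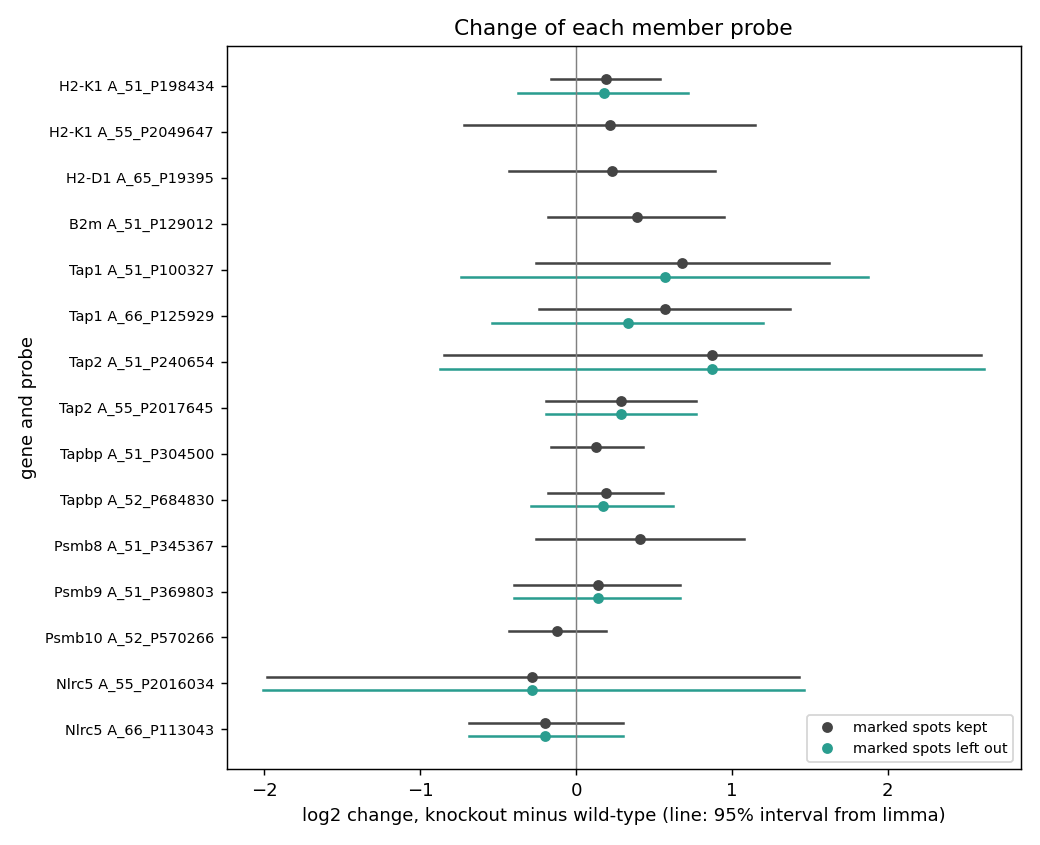
Log2 change, knockout minus wild-type, of each of the 15 member probes, with the 95% interval from limma as a line. Dark grey is the fit with marked spots kept and green the fit with marked spots left out, which covers 9 probes. Every interval includes 0, and the widest are those of the dim Tap2 probe and of Nlrc5 probe A_55_P2016034.

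Psmb8, the inducible chymotrypsin-like subunit of the immunoproteasome, read 0.74, 0.75 and 1.76 in wild-type and 1.34, 1.44 and 1.70 in knockout mice. Wild-type replicates 1 and 2 lay below all other arrays and wild-type replicate 3 was the highest of all. The change was 0.41 ± 0.29 (limma adjusted p = 0.679 with marked spots kept), 0.75 without wild-type replicate 3 (adjusted p = 0.167) and 0.24 without wild-type replicate 1 or 2. Its 3 marked spots were those of wild-type replicates 1 and 2 and knockout replicate 1, so it was not tested without them. Of the unmarked spots, wild-type replicate 3 read 1.76 and the knockout mean was 1.57, so the upward change rests on marked spots.

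Psmb9, which takes the place of the caspase-like subunit, read 1.46, 1.12 and 1.92 in wild-type and 1.55, 1.48 and 1.89 in knockout mice. No spot was marked, replicate 3 was the highest of each group, and the change was 0.14 ± 0.23 (limma adjusted p = 0.874). It was 0.35 without wild-type replicate 3 and -0.05 without wild-type replicate 2. Psmb9 and Tap1 share a promoter, and their array orders differed only between arrays that were close for Psmb9. Knockout replicate 2 was below knockout replicate 1 for Psmb9 (1.48 and 1.55) and above it for Tap1. Knockout replicate 3 was below wild-type replicate 3 for Psmb9 (1.89 and 1.92) and above it for Tap1. The pooled within-group SD of the Psmb9 probe was 0.32.

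Psmb10, the inducible trypsin-like subunit, went the other way in sign with marked spots kept. It read 2.66, 2.59 and 2.38 in wild-type and 2.35, 2.40 and 2.51 in knockout mice, and wild-type replicates 1 and 2, whose spots were marked, were the highest. The change was -0.12 ± 0.13 (limma adjusted p = 0.806, 95% interval -0.43 to 0.19) in that fit. Of the unmarked spots, wild-type replicate 3 read 2.38 and the knockout mean was 2.42, so the sign rests on the marked spots.

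Of the constitutive catalytic subunits, which the inducible ones replace, Psmb5 and Psmb6 varied little between arrays. Psmb7 varied more, from 1.45 to 2.03 with marked spots kept. Psmb5, the counterpart of Psmb8, had a change of 0.08 ± 0.13. Psmb6, the counterpart of Psmb9, had -0.07 ± 0.12 on the brighter probe and 0.09 ± 0.13 on the other. Psmb7, the counterpart of Psmb10, had -0.06 ± 0.19 with 5 of its 6 spots marked (limma adjusted p between 0.853 and 0.948 over these 4 probes, marked spots kept).

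Set against its counterpart on the same array, Psmb8 minus Psmb5 was -1.43, -1.66 and -0.47 in wild-type and -1.08, -0.81 and -0.67 in knockout mice. Such a difference between 2 probes says nothing of their relative abundance, and only its change between genotypes is read. The change was 0.33 for Psmb8 minus Psmb5, 0.21 for Psmb9 minus Psmb6 and -0.06 for Psmb10 minus Psmb7, with marked spots kept. By two-sided exact permutation tests over the 6 arrays, p was 0.4, 0.5 and 0.9, or 0.75, 0.75 and 0.9 after Benjamini-Hochberg adjustment over the 3 pairs. With 3 arrays a group the smallest p this test can give is 0.1. The change for Psmb8 minus Psmb5 was 0.69 without wild-type replicate 3 and 0.09 without wild-type replicate 2. For Psmb9 minus Psmb6 these were 0.47 and -0.01.

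**Figure D3:**
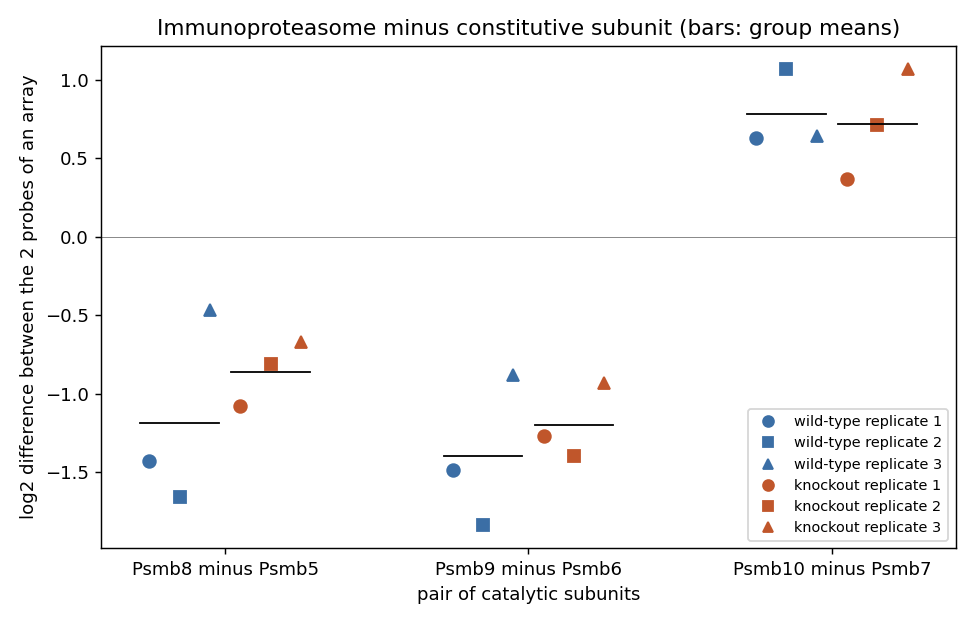
Log2 difference between the probe of an immunoproteasome subunit and that of its constitutive counterpart on each array, with marked spots kept. Blue is wild-type, orange knockout, shapes give the replicate and bars the group means. For the Psmb8 and Psmb9 pairs wild-type replicate 3 is the highest of the 6 arrays, and the groups overlap in all 3 pairs.

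With marked spots kept, 8 of 16 measured genes of the core particle and its assembly were above 0 and 8 below. Of 21 genes of the regulatory particles 5 were above 0 and 16 below, with a median of -0.05, equal to that of all probes, where 40.8% of probes were above 0. In either list 0 were called by limma, and 0 had an unadjusted p under 0.05. Psme1, a subunit of the interferon-inducible activator, had a change of -0.05 ± 0.13 (limma adjusted p = 0.926), and Psme2 had no matched probe. Of the core genes, Psma7 had -0.13 ± 0.13, Psma4 0.15 ± 0.16, Psmg1 0.09 ± 0.15 and Psma3 -0.07 ± 0.14 with marked spots left out. Of the regulatory genes, Psme4, an alternative activator, had -0.17 ± 0.11, Psmd12 -0.19 ± 0.13, Psmc2 -0.13 ± 0.12 and Psmd6 -0.10 ± 0.12. Their adjusted p-values lay between 0.646 for Psme4 and 0.896 for Psma3.

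Nlrc5, which drives class I transcription, had the widest spread between mice among members above background on every array. Probe A_55_P2016034 read -1.86, -2.75 and -0.17 in wild-type and -2.56, -2.35 and -0.70 in knockout mice. Wild-type replicate 3 was 2.14 log2 units above the mean of wild-type replicates 1 and 2, and knockout replicate 3 was 1.76 above the mean of knockout replicates 1 and 2. The genotype change was -0.28 ± 0.73 (limma adjusted p = 0.927), or 0.44 with wild-type replicate 3 dropped and -0.86 with knockout replicate 3 dropped. The second probe, A_66_P113043, read -4.44, -4.67 and -4.01 in wild-type and -4.79, -4.62 and -4.31 in knockout mice, with replicate 3 again highest in each group. Its change was -0.20 ± 0.21 (adjusted p = 0.793), and -0.01 without wild-type replicate 3.

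Among 17 other transcription factors of the pathway measured with marked spots kept, 11 were above 0 and 6 below, with a median of 0.12 and 0 called. Ciita alone had an unadjusted p under 0.05, being higher in knockout, against 3.31% of all probes. The changes that follow are from the fit with marked spots left out. Ciita, the class II transactivator and a relative of Nlrc5, read -2.90, -3.60 and -2.49 in wild-type and -2.19, -1.69 and -2.15 in knockout mice. The groups did not overlap, which held upward for 4.88% of all probes with marked spots kept. The change of Ciita was 0.99 ± 0.29 (unadjusted p = 0.0121, limma adjusted p = 0.33), which did not pass. Stat2 and Irf9, which act in type I interferon signalling, had 0.51 ± 0.27 and 0.33 ± 0.22 (adjusted p = 0.568 and 0.641), and Irf7 had 0.56 ± 0.29 (adjusted p = 0.551). For Stat2, Irf9 and Irf7, wild-type replicates 1 and 2 were the lowest arrays. Wild-type replicate 3 lay above knockout replicates 1 and 2 for each. Irf1, a direct activator of class I promoters, had -0.03 ± 0.14 and Rfx5, which binds the same module as Nlrc5, -0.06 ± 0.16 (adjusted p = 0.962 and 0.927). With marked spots kept Rfx5 had -0.18 ± 0.13 (adjusted p = 0.696).

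Of 15 genes of interferon reception and its control measured with marked spots kept, 9 were above 0 and 6 below, with 0 called. At an unadjusted p under 0.05 there were 1 higher and 1 lower, Ifnar2 and Socs3. Over all probes 3.27% were higher and 7.25% lower at that level with marked spots left out. With marked spots left out, Ifnar2, a chain of the type I interferon receptor, had a change of 0.46 ± 0.12 (limma adjusted p = 0.291). Its groups did not overlap, as held upward for 4.88% of all probes with marked spots kept. Socs3, a feedback inhibitor of cytokine signals, had -0.63 ± 0.22 (adjusted p = 0.383). Usp18 and Socs1, feedback inhibitors of interferon signalling, had 1.49 ± 0.70 and 0.38 ± 0.21 (adjusted p = 0.516 and 0.57). Wild-type replicate 3 was the highest of all arrays for Usp18 and lay above knockout replicate 1 for Socs1.

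A pattern between mice recurred across the members and was chosen for description after the values were seen. Replicate 3 was above replicates 1 and 2 in both genotypes for 12 of 15 member probes and, taking the brightest probe of each, 8 of 10 genes, Tapbp and Psmb10 being the others. Over all probes tested with marked spots kept this held for 9.93%. Wild-type replicates 1 and 2 lay below the other 4 arrays for 8 of the 15 probes and 6 of 10 genes, against 7.61% of all probes. The mean centred level of the 10 genes was -0.21, -0.43 and 0.34 in wild-type and -0.13, 0.00 and 0.42 in knockout mice. Members are measured on the same RNA, so these counts do not stand for independent mice.

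The interferon-stimulated genes, a list with no member in it, were ordered alike over the arrays and spread further. Of 26 measured with marked spots kept, 25 had a change above 0, with a median of 0.97, and 0 were called. At an unadjusted p under 0.05, 3 were higher, against 3.31% of all probes. Their mean centred level was -0.82, -1.47 and 0.80 in wild-type and 0.24, 0.32 and 0.94 in knockout mice. Replicate 3 was above replicates 1 and 2 in both genotypes for 24 of the 26, and wild-type replicates 1 and 2 were below the other 4 arrays for 24 of the 26. With marked spots left out, Oas3, an antiviral sensor, had a change of 1.91 ± 0.72 and Cxcl9, a chemokine that draws T cells, 1.33 ± 0.52 (limma adjusted p = 0.426 and 0.443). Oas1a had 0.27 ± 0.12 and Ifi27l2a 2.66 ± 1.14 (adjusted p = 0.478 for both). Ifi27l2a read -1.57, -2.79 and 2.13 in wild-type and 1.52, 1.83 and 2.39 in knockout mice, so wild-type replicate 3 lay among the knockout arrays. The list means of the other class I genes, the constitutive subunits and the epithelial markers stayed within 0.15 of their centre on every array. For the other class I genes the mean was -0.06, -0.15 and 0.12 in wild-type and -0.05, 0.05 and 0.09 in knockout mice. Replicate 3 was the highest of each group there too, over a smaller range. Single genes of that list differed in order. H2-Q1, H2-Q8, H2-Q10, H2-Bl, H2-M2, H2-T10, H2-T22, H2-T23 and Fcgrt had replicate 3 highest in each group. Cd1d1, Mr1 and Azgp1 had it lowest in each group, and the other genes of the list had neither order. These genes were named after their values were seen.

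**Figure D4:**
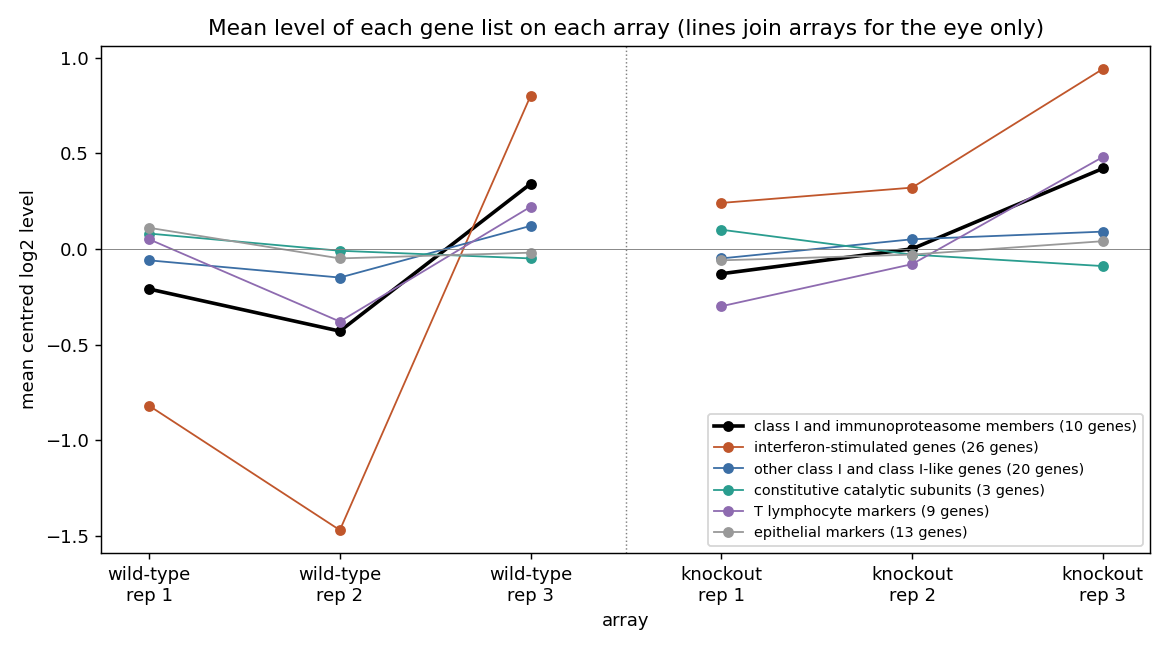
Mean centred log2 level of 6 gene lists on each of the 6 arrays, with marked spots kept and the brightest probe of each gene. Each value is the mean over the genes of the list after subtracting the midpoint of the group means of each gene, and the lines only join arrays of a genotype. The 10 members run from -0.43 to 0.42 and the 26 interferon-stimulated genes from -1.47 to 0.94, both lowest on wild-type replicate 2 and highest on knockout replicate 3.

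T lymphocyte markers differed between the mice as well. All 9 were well above background on every array, and their mean centred level was 0.05, -0.38 and 0.22 in wild-type and -0.30, -0.08 and 0.48 in knockout mice. Their summed level, in multiples of the 75th percentile, ranged from 3.47 to 5.51 in wild-type and from 3.83 to 6.43 in knockout mice. The mean centred level of 22 immune cell markers was -0.04, -0.23 and 0.01 in wild-type and -0.17, 0.10 and 0.33 in knockout mice. Their summed level ranged from 24.1 to 27 in wild-type and from 24.8 to 27.2 in knockout mice. Itgam, the brightest of them at 3.98 to 4.29 log2 units, weighs most in that sum. S100a8 was well above background on no array. The part of these cells in the member levels was not tested, and in bulk tissue more cells of a type and more RNA per cell cannot be told apart.

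By the animal numbers in the labels, replicates 1 and 2 of both genotypes fall in 1 run and replicate 3 of both outside it. The numbers of the replicates 3 are also far from each other, and the labels do not say what the numbers mark. A block of replicates 1 and 2 against the replicates 3 was added after seeing the data. It joins the replicates 3 only because both lie outside the run, and no label ties them together. With that block, 0 of 15 member probes were called with marked spots kept, where 75 of all probes were. The change of Tap1 was 0.68 ± 0.19 on probe A_51_P100327 (unadjusted p = 0.0111, limma adjusted p = 0.293), with an adjusted p of 0.31 on the other probe. B2m had an adjusted p of 0.424 and Psmb8 one of 0.453. Between replicates 1 and 2 alone, the knockout mean minus the wild-type mean was 0.95 for that Tap1 probe, 0.64 for Psmb8 and 0.50 for B2m. Between the replicates 3 it was 0.14, -0.06 and 0.17. Not every member had the lower value between the replicates 3. In the same order the 2 values were 0.11 and 0.47 for H2-D1 and -0.25 and 0.13 for Psmb10. They were 0.18 and 0.22 for H2-K1 probe A_51_P198434 and 0.17 and 0.22 for Tapbp probe A_52_P684830. Whether the genotype difference itself differs between these pairs was not tested.

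By the rule that ranked 2713 genes with unmarked signal above background on all arrays, the 8 genes most like the members over the 6 arrays were Pglyrp2, Tmem86a, Cd274, Spink5, Gzmk, Trim14, Tgfbi and Gimap8. Pearson's r with the mean centred member level ran from 0.977 for Gimap8 to 0.997 for Pglyrp2, values that come from picking the top of 2713 and carry no test. Cd274, which encodes the checkpoint ligand PD-L1, read -2.38, -2.58 and -1.11 in wild-type and -2.02, -1.93 and -1.08 in knockout mice. Gzmk, a granzyme of cytotoxic lymphocytes, read -5.40, -5.81 and -3.37 in wild-type and -5.06, -4.58 and -3.69 in knockout mice. For all 8 genes replicate 3 of each genotype was the highest of its group, an order that the ranking itself selects for. The genotype changes of Cd274 and Gzmk were 0.35 ± 0.43 and 0.42 ± 0.66 (limma adjusted p = 0.826 and 0.868). Those of Pglyrp2 and Tmem86a, which ranked highest, were 0.26 ± 0.25 and 0.20 ± 0.23 (limma adjusted p = 0.771 and 0.815).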

How the data were processed

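RNA of colonic epithelium from 3 wild-type and 3 miR-31 knockout mice was hybridised to 1 Agilent one-colour array each. Spot intensity was extracted by the authors with Agilent Feature Extraction, version 11.5.1.1 per the file headers and 10.7 per the submitters' processing notes. The processed intensity they deposited has background subtracted and is not scaled between arrays. The deposited table of the whole series holds the same processed intensity per probe.

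From the log2 of that intensity, the 75th percentile of each array over its 59305 non-control spots was subtracted. The 3671 control spots and the marked spots were left out, and spots of a probe were averaged (56605 probes). RefSeq accessions gave a symbol to 33767 probes through a gene table of GRCm38.p6. A probe was tested if well above background on at least 3 of 6 arrays with at least 2 unmarked arrays per group. Groups were compared with limma 3.58.1 in R 4.3.3 (two-sided, no covariate), with Benjamini-Hochberg adjustment over all probes tested and a threshold of 0.05. The code was tested on simulated data. Labels do not say more of the replicates than that they are separate mice, and the number of arrays limits the precision.

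The members and gene lists were chosen with earlier results of these data known. Named are all members, up to 4 genes of each other list with the smallest unadjusted p with marked spots left out, a fixed set (Psmb5, Psmb6, Psmb7, Irf1, Ciita, Rfx5, Psme1, Psme2, and 1 gene not reported here) and the 8 genes most like the members, with SD of at least 0.3 over the arrays. Likeness used member values with marked spots kept. Alternatives were normexp background correction (offset 50; on the median signal, as the files used hold no mean signal), quantile normalization, another percentile set, marked spots kept, no filter on dim probes, 1 probe or the mean of probes per gene, the table of the series, trend and robust variance, array weights, slide column or animal number as a block, and leaving out each array. Figures were drawn with matplotlib.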

Additional observations from a re-analysis of the deposited data

How the results depend on the processing

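Of 241 values of member probes over the alternatives, 231 kept their direction and 10 reversed, and 0 passed the threshold. The lowest limma adjusted p was 0.167, for Psmb8 without wild-type replicate 3, where the remaining wild-type spots were all marked. The reversals were H2-K1 A_51_P198434 (leaving out 1 array, -0.01 to 0.36), H2-K1 A_55_P2049647 (-0.08 to 0.62), H2-D1 (-0.02 to 0.45), Tap1 A_51_P100327 (-0.15 to 1.28), Tap1 A_66_P125929 (-0.14 to 0.81), Psmb9 (-0.05 to 0.35) and Nlrc5 A_55_P2016034 (-0.86 to 0.44, and 0.09 with array weights); the cause was not tested.

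The member median kept its sign in every alternative run, from 0.03 to 0.39 when leaving out 1 array, and from 0.11 to 0.40 with marked spots kept, a combination added after seeing the data. The 69 calls over all probes became 125 with normexp, 44 with no filter on dim probes and 128 with trend and robust variance. They became 124 with array weights and 217 with slide column as a block. Wild-type replicate 3 was alone in column 4 and knockout replicate 3 in column 3, so with that block only replicates 1 and 2 inform the genotype change. Leaving out 1 array gave between 31 (wild-type replicate 1) and 141 (knockout replicate 3), with 34 for wild-type replicate 2 and 33 for knockout replicate 2. Leaving out 1 array moved the subunit differences from 0.09 to 0.69 for Psmb8 minus Psmb5, from -0.01 to 0.47 for Psmb9 minus Psmb6 and from -0.24 to 0.11 for Psmb10 minus Psmb7, the last also reversing to 0.08 without wild-type replicate 2. The cause was not tested.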

Other observations

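Some markers of other cells differed more than the members did, without passing the threshold. Jchain, which joins antibody chains in plasma cells, read -4.67, -5.07 and -4.30 in wild-type and -3.83, -3.19 and -3.41 in knockout mice. Its change was 1.20 ± 0.24 (limma adjusted p = 0.195) with no overlap between groups, as held upward for 4.88% of all probes with marked spots kept. The complement genes C1qb and C1qa, which macrophages express together, had changes of opposite sign, -0.53 ± 0.13 and 0.78 ± 0.30 (adjusted p = 0.258 and 0.427). Ms4a1, a B cell marker, had 0.88 ± 0.49 (adjusted p = 0.584). Cd4, Cd8a, Cd3e and Cd8b1 had -0.27 ± 0.20, 0.24 ± 0.22, 0.20 ± 0.22 and 0.22 ± 0.37.

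Of the other tissue markers, Myh11, the myosin of smooth muscle, had -0.47 ± 0.12 (adjusted p = 0.269), Des -0.31 ± 0.18, Col1a2 0.55 ± 0.37 and Pecam1 -0.18 ± 0.20. The epithelial markers Muc2, Krt20, Lgals4 and Krt18 had 0.16 ± 0.12, 0.20 ± 0.15, 0.16 ± 0.15 and -0.07 ± 0.12. With marked spots kept, 4 of the 13 epithelial markers were above 0 and 9 below, with a median of -0.04. The changes named here are from the fit with marked spots left out, where 3 of 7 epithelial markers were above 0 and 4 below. In limma, 0 genes of the immune, epithelial and fibroblast, smooth muscle and endothelium lists passed the threshold. At an unadjusted p under 0.05, Jchain and C1qa were higher and C1qb and Myh11 lower, where 3.27% of all probes were higher and 7.25% lower.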
